A study of Mus musculus with 71 samples.

Results

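The genes of DNA methylation and its removal were followed in RNA from mouse embryonic stem (ES) cells with and without the catalytic subunits of Polycomb repressive complex 2 (PRC2). They are the methyltransferases Dnmt1, Dnmt3a and Dnmt3b, the cofactors Dnmt3l and Uhrf1, the dioxygenases Tet1, Tet2 and Tet3, and the glycosylase Tdg. These 9 genes were taken by symbol from the 24222 genes of the count tables, and all 9 were found. The study compared 3 groups of 3 polyA RNA libraries, all from C57BL/6 ES cells grown on gelatin in 2i, a serum-free medium with a pair of kinase inhibitors that keeps them naive. The groups are cells labelled EZH2 rescue (rescue), in which wild-type EZH2 was put back, cells labelled as a knockout of both Ezh1 and Ezh2 (dKO), and wild-type cells (WT). By RNA, rescue was low in Ezh1 like dKO and above WT in Ezh2 (values below), so rescue and WT differ in both genes. The means of re-expression, and whether a group is 1 clone, stay unstated (not given in the sources used here). A list of Suz12 peaks from WT 129B6F1 ES cells, another strain, was used as well, and the other 61 samples of the series were not analysed here.

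DNA methylation in mammals sits mostly on the cytosine of CpG dinucleotides. Dnmt3a and Dnmt3b place it on unmethylated DNA with the help of the inactive homologue Dnmt3l, and Dnmt1, brought to newly replicated DNA by Uhrf1, copies it to the daughter strand. Tet enzymes oxidize methylcytosine, and Tdg excises the more oxidized forms so that base excision repair can restore an unmodified cytosine. ES cells in 2i are known for low DNA methylation and a low level of the de novo machinery. PRC2, which methylates lysine 27 of histone H3, is known to occupy CpG-rich promoters that lack DNA methylation.

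Libraries held 12457622 to 36009529 counts, and 14145 genes passed a filter on low counts and were tested. Ezh1 was at 2.88 ± 0.540 CPM (counts scaled to library size by TMM) in rescue, 1.99 ± 0.301 in dKO and 49.9 ± 3.02 in WT (SD, n = 3 libraries each, as in all such values here). Ezh2 was at 560 ± 14.1, 199 ± 13.4 and 310 ± 2.98 CPM in rescue, dKO and WT. Gene counts cannot separate a supplied EZH2 transcript from the native one and show no exon deletion, so Ezh2 checks the labels only in part. ES cell markers were present in every group, with 14 of 14 listed markers above 1 CPM and a summed level of 10104 to 10197 CPM in rescue, 7468 to 7576 in dKO and 8398 to 8609 in WT. Of 9 fibroblast markers, 5 of them tested, 5 rose and 0 fell in dKO against WT, where 33.7% of all tested genes rose. Lum was at 0 in all groups, and the summed level was 9.98 to 11 CPM in rescue, 48.7 to 54.4 in dKO and 3.82 to 5.10 in WT. Most of the dKO sum was Thy1, at 29.9 ± 1.09 CPM, and Fbn1, at 16.1 ± 2.52. Of 9 primitive endoderm markers, 8 of them tested, 7 rose and 1 fell in dKO against WT, where 33.7% of all tested genes rose and 31.0% fell. Their summed level was 1764 to 1829 CPM in rescue, 889 to 1039 in dKO and 1091 to 1162 in WT, and runs against that count because most of it is Sparc, at 557 ± 142 CPM in dKO and 966 ± 35.6 in WT. Of 8 trophoblast markers 6 rose and 1 fell in dKO against WT, and the summed level was 155 to 161 CPM in rescue, 240 to 255 in dKO and 185 to 198 in WT. Of 7 neural markers, 4 of them tested, 2 rose and 1 fell in dKO against WT. The 7 summed to 200 to 206 CPM in rescue, 191 to 225 in dKO and 73.8 to 83.2 in WT. The like sums of rescue and dKO came in part from different genes. Nes averaged 22.6 CPM in rescue, 102 in dKO and 17.7 in WT, and Tubb3 93.5, 19.9 and 31.1. Olig2 was above WT in both, at 82.1, 85.5 and 24.8 CPM. The 8 mesoderm markers summed to 6.49 to 7.33 CPM in rescue, 16 to 17.4 in dKO and 1.80 to 2.33 in WT. Replicate 3 of dKO stood apart from the other dKO libraries, at a chi-square per degree of freedom of 22.6 and 22.5 against them, where they differed from each other by 5.44. In bulk RNA, more RNA per cell and more cells of a type cannot be told apart, and the part of other cell types in the results below was not tested.

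Of the 9 genes 8 passed the filter, each with at least 129 counts in every library, and Tdg did not. In dKO against WT, Dnmt3b, Dnmt3l and Tet3 rose, Dnmt1, Uhrf1, Dnmt3a and Tet2 fell, and Tet1 did not pass. That is 7 of 8 tested members past an adjusted p of 0.05 in edgeR's quasi-likelihood test with Benjamini-Hochberg adjustment, where 64.7% of all tested genes were called. In rescue against dKO, Dnmt1, Uhrf1, Tet1 and Tet2 rose, Dnmt3a, Dnmt3l and Tet3 fell, and Dnmt3b did not pass, so that 7 of 8 were called against 70.3% of all tested genes. In rescue against WT, Dnmt3b, Dnmt3l and Tet2 rose, Dnmt3a and Tet3 fell, and Dnmt1, Uhrf1 and Tet1 did not pass, so that 5 of 8 were called against 54.1% of all tested genes. With so many genes called, a count of calls alone does not set the members apart. The median log2 fold change of the 8 was -0.23, 0.22 and 0.21 in these comparisons, against 0.00, -0.04 and 0.00 over all tested genes. Their median absolute log2 fold change was 0.66, 0.60 and 0.45, against 0.41, 0.48 and 0.35. The libraries of the groups did not overlap for 7 of 8 members in dKO against WT, 7 of 8 in rescue against dKO and 7 of 8 in rescue against WT, where that held for 68.0%, 71.7% and 65.3% of all tested genes. The 3 comparisons share libraries and are not independent of each other.

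**Figure D1:**
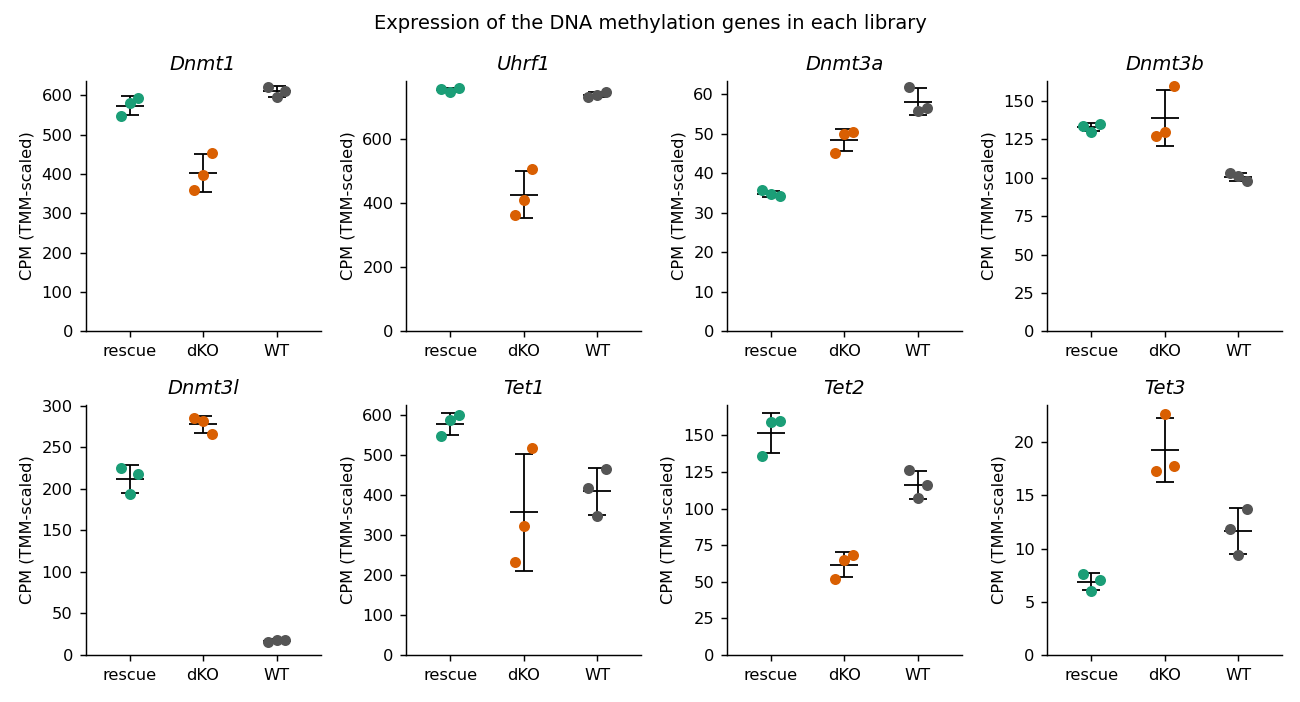
Expression of the 8 tested genes in TMM-scaled CPM, each panel with its own axis from 0; points are libraries of rescue, dKO and WT cells, bars are mean ± SD of 3 libraries. Dnmt3l lies at 193 to 225 CPM in rescue, 266 to 285 in dKO and 15.8 to 18.4 in WT, while Dnmt1, Uhrf1 and Tet2 are lowest in dKO.

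Among the de novo genes, Dnmt3l (chromosome 10, 78042287 to 78063622, coordinates on GRCm38, the assembly behind mm10) differed most. Dnmt3l, which has no catalytic activity of its own and stimulates Dnmt3a and Dnmt3b, stood at 225, 193 and 218 CPM in rescue, 285, 281 and 266 CPM in dKO, and 15.8, 17.5 and 18.4 CPM in WT. Every rescue and every dKO library lay above every WT library, and rescue and dKO did not overlap either. In dKO it rose 16.1-fold over WT, a log2 fold change of 4.01 ± 0.0824 (SE of the fit, as below; edgeR, Benjamini-Hochberg adjusted p = 2.47e-11), which was the 279th highest among the 14145 tested genes. In rescue it was still 12.3-fold above WT, with a log2 fold change of 3.62 ± 0.0814 (edgeR adjusted p = 2.13e-10), the 34th highest of that comparison. Against dKO it fell in rescue by 0.39 ± 0.0694 on the log2 scale (edgeR adjusted p = 0.000327). Among all tested genes, 2.07% had a larger absolute fold change in dKO against WT and 0.332% in rescue against WT.

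**Figure D2:**
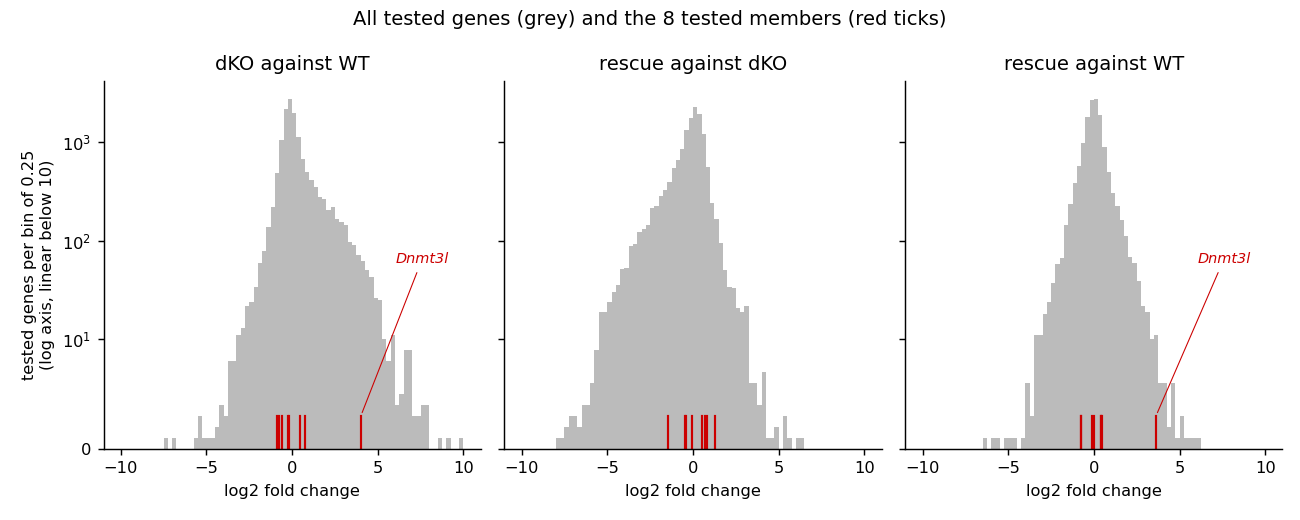
Number of tested genes (vertical, log axis, linear below 10) per bin of log2 fold change (horizontal) in each comparison, with the 8 tested genes as red ticks. Dnmt3l stands at 4.01 in dKO against WT and 3.62 in rescue against WT, while the other 7 lie between -1.48 and 1.29 in all 3 comparisons.

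The span of Dnmt3l shares 1324 bases at its upstream end with Aire, a transcriptional regulator of the thymus, and the library kit does not mark strand. Aire had 178, 116 and 100 counts in rescue, 29, 40 and 32 in dKO, and 3, 10 and 2 in WT, far fewer than the 229 to 7862 counts of Dnmt3l. Aire was higher in both rescue and dKO than in WT, at a log2 fold change of 4.17 ± 0.336 and 2.6 ± 0.395 (edgeR adjusted p = 1.67e-06 and 0.000107), but unlike Dnmt3l it also rose in rescue against dKO, by 1.57 ± 0.241. The 50 tested genes nearest to Dnmt3l had a median log2 fold change of 0.21 in dKO against WT and 0.07 in rescue against WT. RefSeq lists 3 start sites for Dnmt3l, none of whose promoter windows, 250 bases before to 50 after the start, held a Suz12 peak. The gene holds 1 peak of 599 bases (chr10:78043273-78043871), 986 bases downstream of the first start site and partly within the stretch shared with Aire. This peak crosses the upper coordinate of the Aire span, 78043610, so position alone does not assign it to Dnmt3l. The first promoter is shown because it belongs to the gene with the largest change. Gene counts do not show which of the 3 start sites these cells use. The first window has an ordinary number of CpGs, 6 in 300 bases against a median of 7 over the 32851 promoter windows of RefSeq on GRCm38.p6. It lies at chr10:78042037-78042336 on the plus strand and is written 5′ to 3′ with CG dinucleotides in capitals.
Dnmt3l: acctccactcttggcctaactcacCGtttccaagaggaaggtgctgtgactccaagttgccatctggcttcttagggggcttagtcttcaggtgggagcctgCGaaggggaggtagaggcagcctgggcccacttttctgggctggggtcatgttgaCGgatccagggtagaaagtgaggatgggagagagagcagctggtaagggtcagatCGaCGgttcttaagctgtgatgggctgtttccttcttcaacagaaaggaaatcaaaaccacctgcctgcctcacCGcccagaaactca

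The genes with expression most like that of Dnmt3l over the 9 libraries, by the root mean square difference of log2 CPM centred per gene, were Nudt11, Slc7a2 and Crispld2, at 0.37, 0.40 and 0.43. Nudt11, an inositol polyphosphate hydrolase gene, averaged 8.42 CPM in rescue, 16.9 in dKO and 1.05 in WT. Slc7a2, a transporter of cationic amino acids, averaged 8.86, 19.6 and 1.06 CPM in rescue, dKO and WT. In both, rescue lay between dKO and WT, and further below dKO than in Dnmt3l.

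Dnmt3b (chromosome 2, 153649411 to 153687730), one of the de novo enzymes, stood at 134, 130 and 135 CPM in rescue, 127, 130 and 160 in dKO, and 103, 101 and 98.0 in WT. All rescue and dKO libraries lay above WT, and rescue and dKO overlapped. Dnmt3b rose by 0.47 ± 0.0814 in dKO and by 0.40 ± 0.0812 in rescue against WT on the log2 scale (edgeR adjusted p = 0.000310 and 0.00134), that is to 1.38-fold and 1.32-fold. Between rescue and dKO the log2 fold change was -0.06, with a 95% interval of -0.24 to 0.11. Dnmt3a (chromosome 12, 3801559 to 3914443), the other enzyme, had 35.6, 34.6 and 34.1 CPM in rescue, 45.1, 49.8 and 50.3 in dKO, and 61.9, 55.6 and 56.5 in WT. No libraries of different groups overlapped, and the order was WT above dKO above rescue. Dnmt3a fell by 0.26 ± 0.0697 in dKO against WT (edgeR adjusted p = 0.00648), by 0.48 ± 0.0701 in rescue against dKO (6.58e-05) and by 0.74 ± 0.0700 in rescue against WT (5.67e-06). The paralogues thus differed in direction against WT, and gene counts do not separate the long and short transcripts of Dnmt3a.

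The promoters of both enzymes lay in Suz12 peaks, and are shown because they contrast with that of Dnmt3l in CpG number. A peak of 1238 bases (chr2:153649269-153650506) covered the single Dnmt3b start site, whose window holds 30 CpGs. A peak of 2230 bases (chr12:3806075-3808304) covered the first and second of the 3 Dnmt3a start sites, with 46 and 47 CpGs, more than in 98.4% and 98.6% of all promoter windows. The third start site of Dnmt3a, with 18 CpGs, lay 83440 bases from the nearest peak. CG dinucleotides are again in capitals, both windows are on the plus strand, Dnmt3b at chr2:153649199-153649498 and the second window of Dnmt3a at chr12:3806910-3807209.
Dnmt3b: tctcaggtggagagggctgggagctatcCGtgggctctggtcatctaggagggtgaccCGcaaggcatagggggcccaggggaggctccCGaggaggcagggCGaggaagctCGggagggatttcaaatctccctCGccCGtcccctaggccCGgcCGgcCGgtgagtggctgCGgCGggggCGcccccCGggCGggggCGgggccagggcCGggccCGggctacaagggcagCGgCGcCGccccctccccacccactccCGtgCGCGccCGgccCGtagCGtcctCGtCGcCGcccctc
Dnmt3a: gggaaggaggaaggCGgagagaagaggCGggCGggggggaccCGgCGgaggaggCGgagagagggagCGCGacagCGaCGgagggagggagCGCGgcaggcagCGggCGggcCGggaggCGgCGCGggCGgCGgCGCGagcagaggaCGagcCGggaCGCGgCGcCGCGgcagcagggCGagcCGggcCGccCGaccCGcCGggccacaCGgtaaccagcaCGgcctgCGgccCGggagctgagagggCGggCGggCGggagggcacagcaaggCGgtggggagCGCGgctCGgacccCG

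The maintenance pair fell together in dKO. Dnmt1 (chromosome 9, 20907206 to 20959888), the maintenance methyltransferase, stood at 548, 579 and 594 CPM in rescue, 358, 398 and 454 in dKO, and 622, 596 and 611 in WT. All dKO libraries lay below all others. Dnmt1 fell by 0.59 ± 0.0768 in dKO against WT and rose by 0.51 ± 0.0767 in rescue against dKO on the log2 scale (edgeR adjusted p = 2.87e-05 and 8.75e-05). Rescue and WT did not differ past the threshold, at -0.09 with a 95% interval of -0.25 to 0.08 (edgeR adjusted p = 0.350), although the 3 rescue libraries were all below the 3 WT libraries. Uhrf1 (chromosome 17, 56303337 to 56323486), which binds hemimethylated CpG and recruits Dnmt1, stood at 757, 747 and 761 CPM in rescue, 363, 410 and 509 in dKO, and 734, 738 and 748 in WT. Its dKO libraries were the lowest and the most spread. Uhrf1 fell by 0.79 ± 0.0955 in dKO against WT and rose by 0.82 ± 0.0954 in rescue against dKO (edgeR adjusted p = 1.70e-05 and 1.05e-05), and between rescue and WT the log2 fold change was 0.03, with an interval of -0.18 to 0.24. Replicate 3 was the highest dKO library for Dnmt1, Uhrf1 and Dnmt3b, and without it the log2 fold changes in dKO against WT were -0.69, -0.94 and 0.35, all still called.

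Genes of S phase, in which Dnmt1 and Uhrf1 are known to be most expressed, were lower in dKO too. Of 20 listed S-phase genes, all tested, 16 fell and 0 rose in dKO against WT, where 31.0% of all tested genes fell. The summed level of the 20 genes was 6515, 6565 and 6389 CPM in rescue, 4898, 4780 and 5195 in dKO, and 6703, 6863 and 6580 in WT. Mcm3, a subunit of the replicative helicase, fell by 0.64 ± 0.0476, Mcm2 by 0.56 ± 0.0467 and Pola1, of the primase complex, by 0.90 ± 0.0563, while Fen1 stood at 0.01 and did not pass. In rescue against dKO 13 rose and 0 fell, Gins2 not passing at 0.04, where 32.1% of all tested genes rose. In rescue against WT 4 rose, Fen1 by 0.51 ± 0.0709, and 7 fell, Cdc45 by 0.34 ± 0.0628, near the 26.8% and 27.3% of all tested genes. Whether the lower S-phase level accounts for the lower Dnmt1 and Uhrf1 was not tested.

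No Suz12 peak lay on Dnmt1 or Uhrf1 or at their promoters. The nearest peak was 72024 bases or more from the start sites of Dnmt1 and 21604 bases or more from those of Uhrf1. Because both genes moved with the S-phase list, their promoters were searched for words bound by E2F factors, the regulators of S-phase genes, namely TTTCCCGC, TTTGGCGC, TTTCGCGC and TTTGCCGC on either strand, counting overlapping matches. The third of 3 Dnmt1 windows held 2 matches and the second of 2 Uhrf1 windows held 1, as did 2.26% of all promoter windows at least once, and no other member window held any. All 4 words contain CG, and the share among windows with as many CpGs was not taken, so 2.26% is not a matched background. A match is not evidence of binding. These windows are printed with the matches in capitals, Dnmt1 at chr9:20952574-20952873 on the minus strand and Uhrf1 at chr17:56304063-56304362 on the plus strand, and each holds 33 CpGs.
Dnmt1: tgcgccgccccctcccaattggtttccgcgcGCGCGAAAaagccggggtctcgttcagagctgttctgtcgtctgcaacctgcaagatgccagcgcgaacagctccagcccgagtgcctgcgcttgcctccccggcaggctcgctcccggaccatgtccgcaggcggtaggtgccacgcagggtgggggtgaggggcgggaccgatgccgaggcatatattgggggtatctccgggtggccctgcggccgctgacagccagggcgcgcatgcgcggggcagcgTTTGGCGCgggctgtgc
Uhrf1: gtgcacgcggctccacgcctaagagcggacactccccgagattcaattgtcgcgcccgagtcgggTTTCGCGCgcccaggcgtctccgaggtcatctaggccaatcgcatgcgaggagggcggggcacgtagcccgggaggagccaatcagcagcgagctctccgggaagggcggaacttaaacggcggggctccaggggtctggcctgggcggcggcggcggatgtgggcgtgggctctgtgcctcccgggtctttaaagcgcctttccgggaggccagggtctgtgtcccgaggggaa

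**Figure D3:**
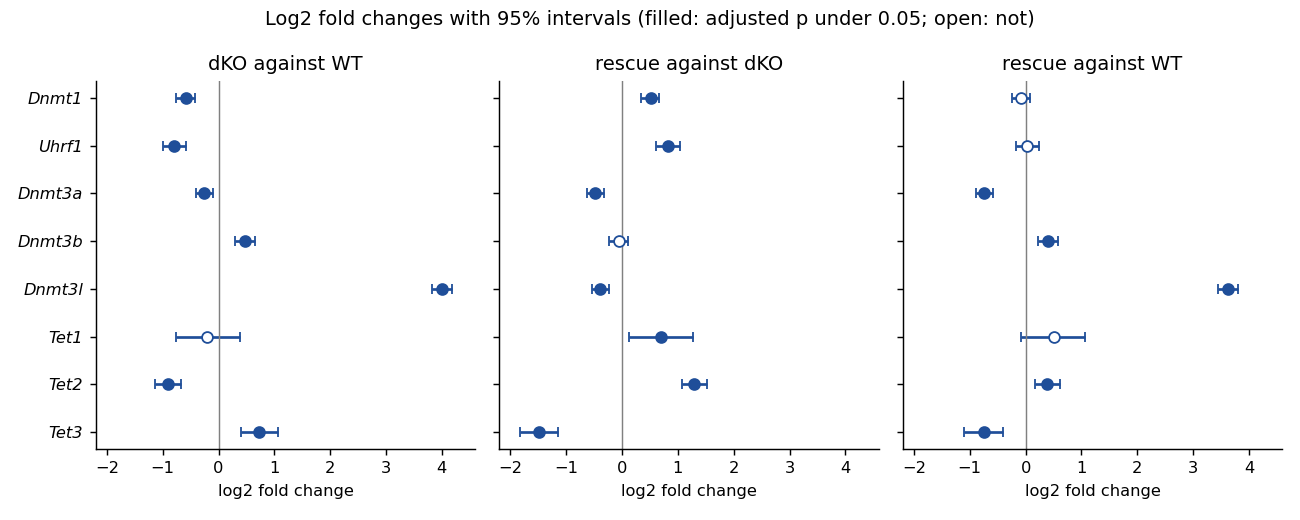
Log2 fold change of each tested gene (horizontal) with its 95% interval, in dKO against WT, rescue against dKO and rescue against WT; filled points passed an adjusted p of 0.05, open points did not. Dnmt1, Uhrf1 and Tet2 are on the left in dKO against WT and on the right in rescue against dKO, Tet3 is the reverse, and Dnmt3l is far right in both comparisons with WT.

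The Tet genes differed from each other. Tet2 (chromosome 3, 133463677 to 133545136), which unlike Tet1 and Tet3 lacks a CXXC domain, stood at 136, 159 and 160 CPM in rescue, 51.8, 64.7 and 68.4 in dKO, and 126, 107 and 116 in WT. The groups did not overlap, with rescue highest and dKO lowest. Tet2 fell by 0.91 ± 0.105 in dKO against WT, rose by 1.29 ± 0.105 in rescue against dKO and rose by 0.39 ± 0.102 in rescue against WT on the log2 scale (edgeR adjusted p = 1.18e-05, 5.13e-07 and 0.00717). Over the other 650 tested genes of chromosome 3 the median log2 fold change was -0.43 in rescue against dKO and -0.41 in rescue against WT, and over the 50 nearest to Tet2 it was -0.46 and -0.51, so Tet2 rose where its neighbours were lower. For the other members the median of the chromosome lay between -0.10 and 0.10 in all comparisons.

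Tet3 (chromosome 6, 83362373 to 83457208), the Tet enzyme of the oocyte and of differentiating cells, was low throughout, at 7.6, 6.02 and 7.0 CPM in rescue, 17.3, 22.7 and 17.8 in dKO, and 11.8, 9.42 and 13.7 in WT. Again no groups overlapped, but the order was dKO above WT above rescue. Tet3 rose by 0.73 ± 0.152 in dKO against WT, and fell by 1.48 ± 0.155 in rescue against dKO and by 0.75 ± 0.160 in rescue against WT (edgeR adjusted p = 0.00113, 4.03e-06 and 0.00191). Tet1 (chromosome 10, 62804570 to 62887469), the main Tet enzyme of ES cells, stood at 546, 586 and 600 CPM in rescue, 231, 321 and 517 in dKO, and 416, 347 and 464 in WT. The dKO libraries spread widely, and dKO replicate 3 lay above all WT libraries. In dKO against WT the log2 fold change was -0.20, with a 95% interval of -0.77 to 0.38 (edgeR adjusted p = 0.518), and without dKO replicate 3 it was -0.57 (0.0297). Over the 16 alternatives this value ran from -0.57 to 0.03, with an adjusted p of 0.0297 to 0.887.

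Tet1 rose in rescue against dKO by 0.69 ± 0.251 on the log2 scale (edgeR adjusted p = 0.0347), all rescue libraries being above all dKO libraries. That call was lost with no filter on low counts (0.0783), without dKO replicate 1 (0.0525) or 2 (0.120), and without rescue replicate 1 (0.0512) or 3 (0.0680), over a range of 0.00196 to 0.120 in the 16 alternatives. Tet1 in rescue against WT stood at 0.50, with an interval of -0.08 to 1.07 (edgeR adjusted p = 0.127), although the groups did not overlap. It passed with only these groups in the fit (0.00419), with the replicate number as a block (0.0462) and without dKO replicate 1 (0.0303) or 3 (0.0327), the range over the 16 alternatives being 0.00419 to 0.283.

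**Figure D4:**
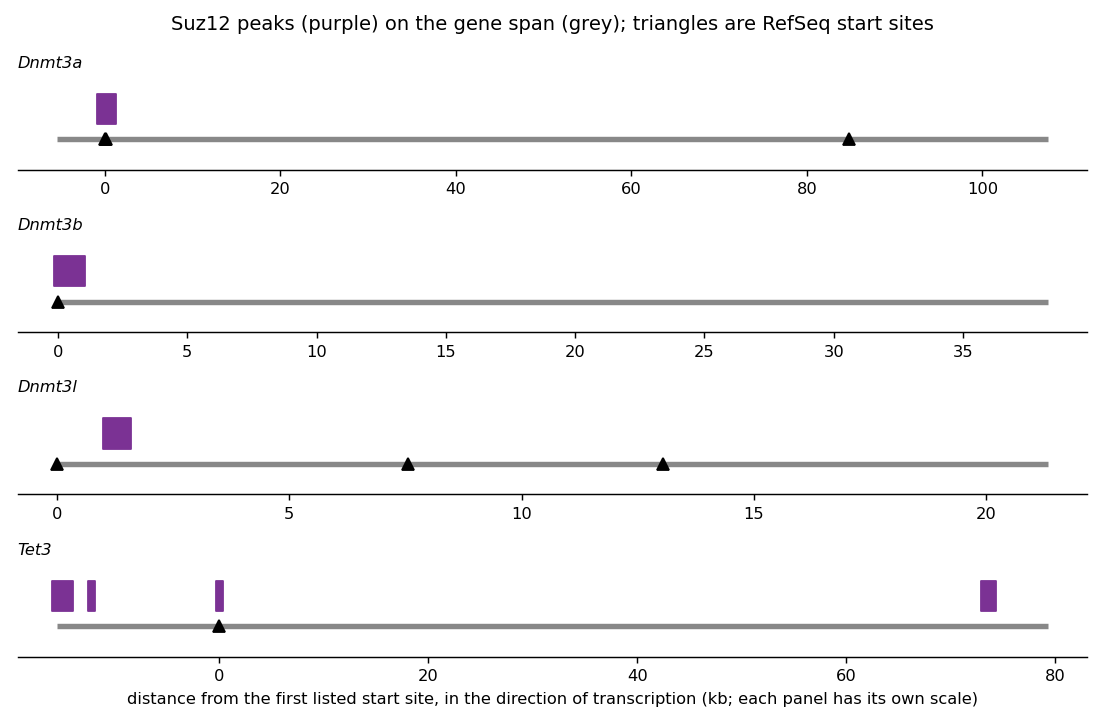
Suz12 peaks of WT 129B6F1 ES cells (purple) on the spans of Dnmt3a, Dnmt3b, Dnmt3l and Tet3 (grey), by distance in kb from the first RefSeq start site in the direction of transcription; triangles are start sites and each panel has its own scale. Peaks cover start sites of Dnmt3a, Dnmt3b and Tet3. The peak on Dnmt3l, which also overlaps Aire (not drawn), lies 0.986 to 1.584 kb downstream of the first Dnmt3l start site.

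Tet3 held 4 of the 7 Suz12 peaks found on the 9 genes. Those of Dnmt3a, Dnmt3b and Dnmt3l were 1 each, that on Dnmt3l also overlapping Aire, and the other 5 genes held none. A Tet3 peak of 700 bases (chr6:83441314-83442013) covered the only start site with a listed promoter window. The gene span runs further upstream, to 83457208. Another peak of 2019 bases (chr6:83455659-83457677) lay over that upstream end, for which no window was listed. At the level of promoter windows, 4 of the 16 listed for the 9 genes (25%) overlapped a peak by at least 1 base, against 13.3% of all promoter windows. The first and second Dnmt3a windows, both among the 4, overlap each other and share 1 peak, so these windows belong to 3 of the 9 genes. Of the genes with a peak, Dnmt3b, Dnmt3l and Tet3 rose in dKO against WT and Dnmt3a fell, the Dnmt3l peak being in no promoter window of that gene. Of those without a peak, Dnmt1, Uhrf1 and Tet2 fell, Tet1 did not pass and Tdg was not tested. Directions of genes with and without a peak were not compared over all tested genes, so no link between peak and direction is drawn. The promoter of Tet2 holds 57 CpGs, more than 99.8% of all windows, yet the nearest peak was 233689 bases away. Member windows with a peak held 22 to 47 CpGs, and those without held 2 to 57, most of them fewer than 22. The Tet3 window (chr6:83441629-83441928, 22 CpGs, in a peak) and the Tet2 window (chr3:133544341-133544640) are printed because here the window with more CpGs lacked a peak. Both are on the minus strand, with CG in capitals.
Tet3: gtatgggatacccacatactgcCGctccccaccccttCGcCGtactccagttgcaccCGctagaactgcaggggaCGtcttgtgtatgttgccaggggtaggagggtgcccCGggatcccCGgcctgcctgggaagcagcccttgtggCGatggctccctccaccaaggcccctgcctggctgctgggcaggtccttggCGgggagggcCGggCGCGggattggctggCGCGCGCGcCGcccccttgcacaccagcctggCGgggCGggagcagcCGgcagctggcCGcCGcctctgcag
Tet2: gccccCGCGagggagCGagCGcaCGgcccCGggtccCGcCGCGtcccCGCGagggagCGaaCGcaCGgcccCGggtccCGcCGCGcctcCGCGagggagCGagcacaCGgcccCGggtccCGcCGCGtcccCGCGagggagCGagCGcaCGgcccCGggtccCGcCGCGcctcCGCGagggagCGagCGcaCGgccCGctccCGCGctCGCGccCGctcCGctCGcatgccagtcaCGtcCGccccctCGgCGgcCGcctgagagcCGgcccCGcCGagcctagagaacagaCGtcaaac

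By likeness over the 9 libraries, Tet2 was closest to Zscan10, Klf8 and Trim8, at a root mean square difference of 0.10, 0.11 and 0.12 log2 units. Zscan10, a zinc-finger factor of pluripotent cells, averaged 135 CPM in rescue, 53.6 in dKO and 99.6 in WT. Tet3 was closest to Rnpepl1, Gal3st3 and Cpd, at 0.13, 0.14 and 0.15. Cpd, a carboxypeptidase, averaged 37.8 CPM in rescue, 110 in dKO and 64.2 in WT. The remaining 5 tested genes spanned less than 1 log2 unit between group means and were not matched in this way.

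Tdg (chromosome 10, 82629814 to 82650799), the glycosylase that removes formylcytosine and carboxylcytosine, had 0, 2 and 0 counts in rescue, 0, 1 and 0 in dKO, and 0, 1 and 0 in WT. These 4 counts in 9 libraries did not pass the filter. In the libraries with 0 counts the limit of 3 counts allows 0.0833 to 0.241 CPM, here without TMM scaling. RefSeq lists near copies named Tdg-ps (chromosome 15, 82516295 to 82519242) and Tdg-ps2 (chromosome 10, 42052558 to 42055453). Tdg-ps2, called Gm9855 in the count tables, had 0 counts in all libraries. The counting of reads that match several places is not stated, so the level of Tdg is uncertain and no difference is drawn from it.

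Partners of the members were followed by role. Of 9 maintenance partners 6 fell and 1 rose in dKO against WT, with a median of -0.41, where 31.0% of all tested genes fell and 33.7% rose. Cdca7, the activator of the remodeller Hells, fell by 1.09 ± 0.0577, its relative Cdca7l rose by 1.26 ± 0.0827, Lig1, the ligase of Okazaki fragments, fell by 0.57 ± 0.0506 and Uhrf2 stood at 0.00. In rescue against dKO 5 rose, among them Cdca7 by 0.64 ± 0.0573, and 3 fell, among them Cdca7l by 0.94 ± 0.0800 and Dppa3, an antagonist of Uhrf1, by 1.09 ± 0.0965, where 32.1% of all tested genes rose and 38.2% fell. In rescue against WT 5 fell and 1 rose, where 27.3% and 26.8% did. Dppa3 averaged 28.9 ± 2.89 CPM in rescue and 77.5 ± 3.98 in WT, and Uhrf2 49.0 ± 0.406 against 87.0 ± 1.19.

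Of 15 genes that target or protect DNA methylation 13 fell and 2 rose in dKO against WT (median -0.42), where 31.0% of all tested genes fell and 33.7% rose. Morc1, which silences transposons in germ cells, fell by 1.09 ± 0.0803 and the histone chaperone Daxx by 0.51 ± 0.0572. Prdm14, known to repress Dnmt3b and Dnmt3l in naive ES cells, rose by 0.66 ± 0.0669. It averaged 75.7 ± 3.31 CPM in dKO and 47.7 ± 2.77 in WT, so Prdm14 and Dnmt3l rose together. Whether Prdm14 acts on Dnmt3l in these cells was not tested. In rescue against dKO 9 rose and 4 fell, where 32.1% and 38.2% of all tested genes did, and in rescue against WT 6 rose and 4 fell, where 26.8% and 27.3% did. The imprint-protecting zinc-finger proteins Zfp57 and Zfp445 rose by 1.59 ± 0.0633 and 0.95 ± 0.0529 in rescue against dKO, and by 1.09 ± 0.0623 and 0.53 ± 0.0524 in rescue against WT. Ehmt2 did not pass in rescue against dKO, nor Ctcf in rescue against WT (0.03), and Smchd1 fell there by 0.62 ± 0.0595.

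CXXC proteins, which bind unmethylated CpG, fell in 6 and rose in 0 of 7 tested members in dKO against WT (8 listed, median -0.43), where 31.0% of all tested genes fell. They rose in 6 and fell in 0 in rescue against dKO (median 0.60), where 32.1% of all tested genes rose. Cxxc1 fell by 0.65 ± 0.0804 and Cxxc5 by 0.51 ± 0.0689 in dKO, with Kmt2a at 0.05, and Kdm2b, which brings a variant Polycomb complex to CpG islands, rose by 0.73 ± 0.0587 in rescue against dKO and by 0.59 ± 0.0586 in rescue against WT. Of 14 base excision repair genes 9 fell and 3 rose in dKO against WT (median -0.44), where 31.0% and 33.7% of all tested genes did. Parp1 fell by 0.70 ± 0.0459, Xrcc1 by 0.70 ± 0.0615 and Gadd45a by 1.47 ± 0.101, with Apex1 at -0.25 not passing. In rescue against dKO 5 rose, Parp1 by 0.58 ± 0.0458 and Ung by 0.66 ± 0.0862, and 4 fell, a number of calls near the 70.3% of all tested genes. In rescue against WT 7 fell and 1 rose, where 27.3% and 26.8% of all tested genes did, and Neil2 fell by 1.30 ± 0.163 and Neil1 by 0.94 ± 0.151. The glycosylases Neil1 and Neil2 act on oxidized bases. Of 9 methyl-CpG readers 1 rose, Mbd2 by 0.51 ± 0.112, and 2 fell in dKO against WT (median -0.07), among them Zbtb38 by 1.67 ± 0.176, fewer calls than the 64.7% of all tested genes. Against dKO, 3 readers rose in rescue, among them Zbtb38 by 1.41 ± 0.175, and 1 fell, Mbd2 by 0.90 ± 0.112. In rescue against WT 2 rose and 1 fell, and 5 were called in all with only these groups in the fit. Those counts too were under the 70.3% called in rescue against dKO and, for the 3 calls, the 54.1% called in rescue against WT.

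Genes that supply the cofactors were followed as well. Of 12 genes of methyl donor supply 8 fell and 1 rose in dKO against WT (median -0.35), where 31.0% and 33.7% of all tested genes did, Mtrr falling by 0.74 ± 0.0601, Shmt2 by 0.67 ± 0.0548 and Gldc, the glycine decarboxylase, rising by 0.91 ± 0.0799. Against dKO, 8 rose and 2 fell in rescue, where 32.1% and 38.2% of all tested genes did, with Mat2b up by 1.01 ± 0.0731. Mat2a, which makes S-adenosylmethionine, averaged 401 ± 9.07 CPM in rescue and 168 ± 6.33 in WT, and in that comparison 5 genes rose and 4 fell, where 26.8% and 27.3% of all tested genes did. Of 9 genes listed for Tet cofactor supply, Ogt and Vhl among them, 3 fell and 1 rose in dKO against WT (median -0.11). That is fewer calls than the 64.7% of all tested genes, and 7 were called without dKO replicate 3. Counts in rescue against dKO were 4 rising and 3 falling, where 32.1% and 38.2% of all tested genes did. They were 3 rising and 3 falling in rescue against WT, where 26.8% and 27.3% did. Idh2, a mitochondrial source of 2-oxoglutarate, fell by 0.53 ± 0.0723 in dKO against WT and by 1.09 ± 0.0729 in rescue against WT. Its relative Idh1 did not pass in dKO against WT (0.07) and rose by 0.33 ± 0.0777 in rescue against WT. Ogt, a partner of Tet proteins, rose by 0.47 ± 0.0604 in rescue against dKO and by 0.36 ± 0.0603 in rescue against WT.

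Germline genes whose promoters are known to be silenced by DNA methylation in somatic cells moved with dKO. Of 18 such genes, all tested, 16 rose and 1 fell in dKO against WT (median 1.94), where 33.7% of all tested genes rose. Syce1, a synaptonemal complex gene, averaged 56.9 ± 5.10 CPM in dKO and 4.35 ± 0.844 in WT, Tex11 rose by 2.26 ± 0.0765 and Slc25a31 by 3.97 ± 0.162, with Taf7l at -0.13 not passing. Against dKO, 17 fell and 0 rose in rescue (median -2.2), where 38.2% of all tested genes fell. Tex101 fell by 5.96 ± 0.223, and Sycp3 did not pass. In rescue against WT 9 fell, Hormad1 by 1.98 ± 0.123, and 5 rose, Syce1 by 1.44 ± 0.134, while Ddx4 stood at 0.04. Of all tested genes 27.3% fell and 26.8% rose in that comparison, and the 5 that rose are a share near 26.8%. The summed level of the list was 213 to 235 CPM in rescue, 707 to 840 in dKO and 298 to 310 in WT, lowest in rescue, whereas Dnmt3l stayed above WT in rescue. DNA methylation itself was not measured here.

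**Figure D5:**
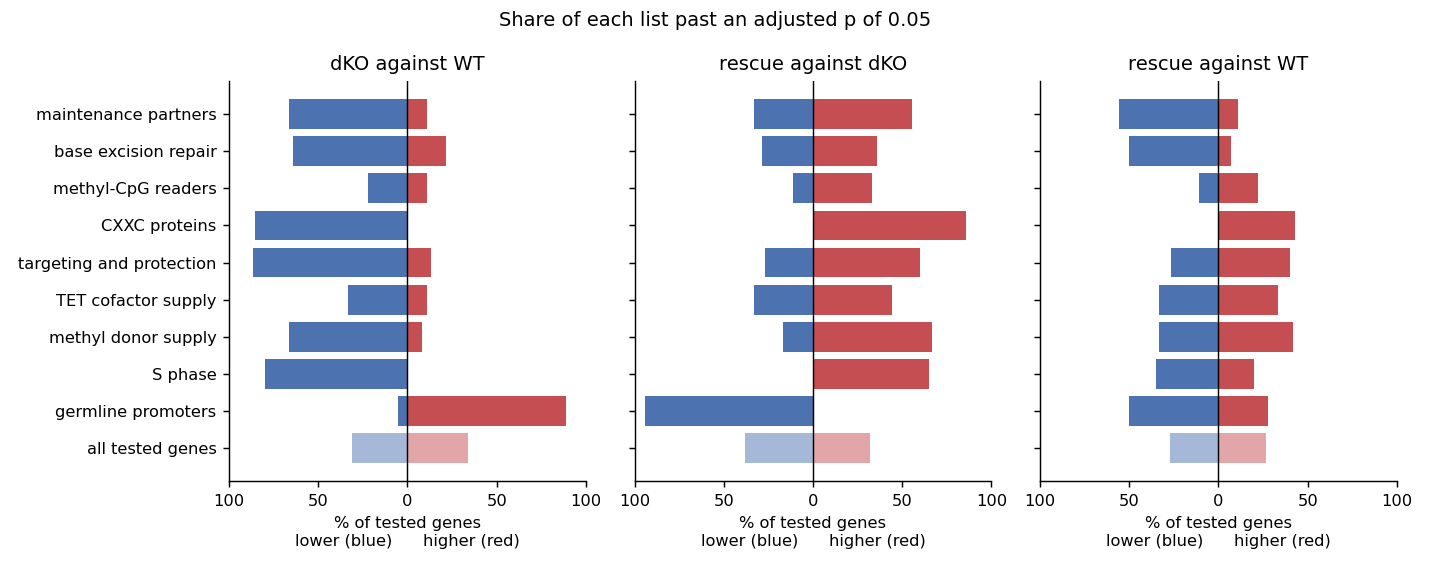
Share of the tested genes of each list that passed an adjusted p of 0.05, higher (red, right) or lower (blue, left), in each comparison, with the share over all tested genes in pale colours at the bottom. In dKO against WT the CXXC, S-phase and targeting lists lie mostly left (6 of 7, 16 of 20 and 13 of 15 lower) and the germline list right (16 of 18 higher).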

How the data were processed

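The authors deposited whole-number read counts for each gene, not normalized. Per the submitters' processing notes, Trimmomatic, STAR 2.4.0 and HTSeq were used on mm10, and the kit was TruSeq RNA v2 per the labels' protocols, a kit without strand marks. HTSeq's mode and annotation were not given in the sources used here, so the level of overlapping genes or near copies is uncertain. As other values the authors deposited Suz12 peak coordinates, without scores and with no caller stated.

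edgeR 4.0.16 in R 4.3.3 was run on all 9 libraries in 1 fit (TMM, filterByExpr by group, robust glmQLFit, glmQLFTest, 6 residual degrees of freedom, two-sided), with p-values adjusted by Benjamini-Hochberg over 14145 genes and calls at 0.05. CPM are TMM-scaled. SE were derived from the F statistic, and the script was tested on simulated data. Alternatives included DESeq2 1.42.0. Levels were not compared between genes, since no transcript lengths were used. Libraries of 1 group differed beyond counting noise (chi-square per degree of freedom 2.15 to 22.6, and at most 11.4 without dKO replicate 3). Nothing says that replicates are separate cultures, so p-values measure the spread between these libraries, which may be technical. Limits of 3 counts cover counting error only.

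The 9 members, the gene lists and the tests were chosen with earlier results of these data known. Named from each list, per comparison, were the 3 called genes of smallest adjusted p and 1 uncalled gene at most, and the 3 genes most like any member spanning at least 1 log2 unit between group means, among genes with a mean of at least 2 CPM and no predicted-gene name. Some genes that this rule names are not reported here. Promoters are RefSeq windows on GRCm38.p6, and gene positions came from its gene table, which placed 22859 genes by symbol.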

Additional observations from a re-analysis of the deposited data

How the results depend on the processing

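Of 384 log2 fold changes of the 8 tested members under the 16 alternatives (DESeq2 size factors, DESeq2, no filter, a mean of at least 2 CPM, scaling without chromosomes 3, 9 and 14, only the 2 groups compared, the replicate block, and each library left out), 374 kept their direction or lack of a call and their side of the threshold. The 10 that did not were all of Tet1: 5 lost and 5 gained a call, and the cause was not tested. The members called stayed within 7 to 8 in dKO against WT, 6 to 7 in rescue against dKO and 5 to 6 in rescue against WT. Deviations of same-numbered replicates from their group means had correlations of -0.112 to 0.201. Pairs with different numbers were not compared, so these correlations do not decide whether a number marks libraries handled together. With the replicate block 7, 7 and 6 members were called, and the block changed no member call other than that of Tet1 in rescue against WT. List genes were checked singly only where the naming rule picked them, and of these the calls of Mbd2 and Kmt2a in rescue against WT were lost under at least 1 alternative. Counts of called genes moved in other lists too. In dKO against WT they ran from 14 to 17 for S phase (16 in the main fit) and from 10 to 12 for base excision repair (12). The germline count in rescue against WT ran from 11 to 15 (14), while that of maintenance partners in dKO against WT stayed at 7. Suz12 peaks lay on 4 members, also when counted within 1 kb of either end. Across the alternatives Dnmt3l stayed between 3.95 and 4.07 in dKO and between 3.56 and 3.68 in rescue against WT.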
